A study of Mus musculus with 56 samples.

Results

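10 genes of oxygen sensing and of the response to low oxygen were followed across activated mouse CD4 T cells. They are Hif1a, Egln1, Egln3, Ndrg1, Bnip3, Mgarp, Vegfa, Pdk1, P4ha1 and Ankrd37, chosen by name. These genes, and the lists of related genes below, were chosen with earlier results of these data known. Their shares called are therefore set beside those of all genes as description. All 10 stand in both deposited count tables, among 24421 gene symbols in experiment 2 and 19791 in experiment 1, and all 10 passed the filter on low counts in both. CD4 T cells from spleens of C57BL/6 mice were activated with beads carrying antibodies to CD3 and CD28, in complete RPMI medium with no cytokine added. In experiment 2, cells were started at a high concentration of 1000000 cells per ml or a low concentration of 62500 cells per ml, and CD4 positive cells were sorted at 18, 30, 48 and 72 h. Experiment 2 also holds cultures started at 250000 cells per ml, sorted at 48 and 72 h into CD62L positive and CD62L negative cells, both CD44 positive, and naive cells that were not activated. Experiment 1 holds CD62L positive and CD62L negative cells of cultures started at 250000 cells per ml, sorted at 48 and 72 h without the CD44 gate, and 2 kinds of cells that were not activated, mature (CD44 positive, CD62L negative) and naive (CD44 negative, CD62L positive). CD62L is a receptor that brings lymphocytes into lymph nodes, and CD44 marks cells that have met antigen. There are 3 libraries in every group but 1: at the low concentration 2 libraries were taken at 72 h. The study's question is how the concentration of cells bears on early memory differentiation. High and low cultures differ in the number of cells a well from the start, and no measurement of oxygen was used here.

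In cells with enough oxygen, prolyl hydroxylases mark the alpha subunits of the hypoxia-inducible factors (HIF), the von Hippel-Lindau protein binds the marked subunits, and the proteasome destroys them. When oxygen is short the alpha subunit persists, pairs with ARNT and turns on genes for glucose use, blood vessel growth and mitochondrial turnover. In T cells, signalling through the antigen receptor is also known to raise HIF-1 alpha with oxygen present, so these genes are studied in activated T cells as well as in hypoxic tissue. Much of the control of HIF-1 alpha acts on the protein, which RNA counts do not show.

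Libraries are 3′ end counts with molecular identifiers, and held 587118 to 3359875 counts in experiment 2 and 58750 to 1738555 in experiment 1. Summed T-cell markers reached 1487 to 4862 CPM (counts scaled to library size) in experiment 2 and 2421 to 5880 in experiment 1, with 5 of the 6 markers found in the tables. In experiment 2 summed B-cell markers stayed at or under 14.9 CPM and red-cell markers were at 0, while myeloid markers reached 83.3 to 301 CPM and CD8 and NK markers 13.1 to 96.2 CPM. Levels below are CPM scaled by TMM (a correction for differences in RNA composition), each table on its own. A 3′ count does not grow with transcript length, yet capture differs between genes, so levels are compared between groups of libraries and not between genes. Differences are log2 values ± SE, with the group named first on top, and "higher", "lower", "rose" and "fell" are used of genes past an adjusted p of 0.05 in edgeR (quasi-likelihood test, Benjamini-Hochberg adjustment across the whole table). In bulk samples, fewer expressing cells and less RNA per cell cannot be told apart.

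The number of oxygen-response genes called higher at the high than at the low concentration grew with time. The times given are those of passing a threshold, and at 30 h the differences of all 10 were already positive. None passed the test at 18 h, where none had an unadjusted p under 0.05 and DESeq2 also called 0. There were 4 higher at 30 h (Ankrd37, Bnip3, Mgarp and Ndrg1), 8 at 48 h (with Egln1, Egln3, Pdk1 and Vegfa) and 9 at 72 h (with P4ha1). Hif1a did not pass the test at any of the 4 times, and none of the 10 was lower. Over all 9239 genes tested, 1.15% were called higher and 0.725% lower at 18 h, 4.63% higher and 3.93% lower at 30 h, 13.9% higher and 12% lower at 48 h, and 13% higher and 13.5% lower at 72 h. The median log2 difference of the 10 genes was -0.09 at 18 h, 0.71 at 30 h, 2.94 at 48 h and 3.94 at 72 h, beside medians of 0.01, -0.03, 0.04 and 0.01 over all genes. The titles carry a second number, 1 or 2, whose meaning no source used here gives; at 72 h it is 1 in all high and 2 in all low libraries, and at 48 h it is 2 in all high and in 1 of the 3 low libraries. With that number as a term in the fit, every call and missed call of the 10 genes at the 4 times stood as before. At 18 h and at 30 h all high and low libraries share the same number, so the term could hardly move those differences. At 72 h the number splits exactly as the concentration does, so the term there rests on its estimate from other groups. The fit thus cannot separate the number from the concentration at 72 h.

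**Figure D1:**
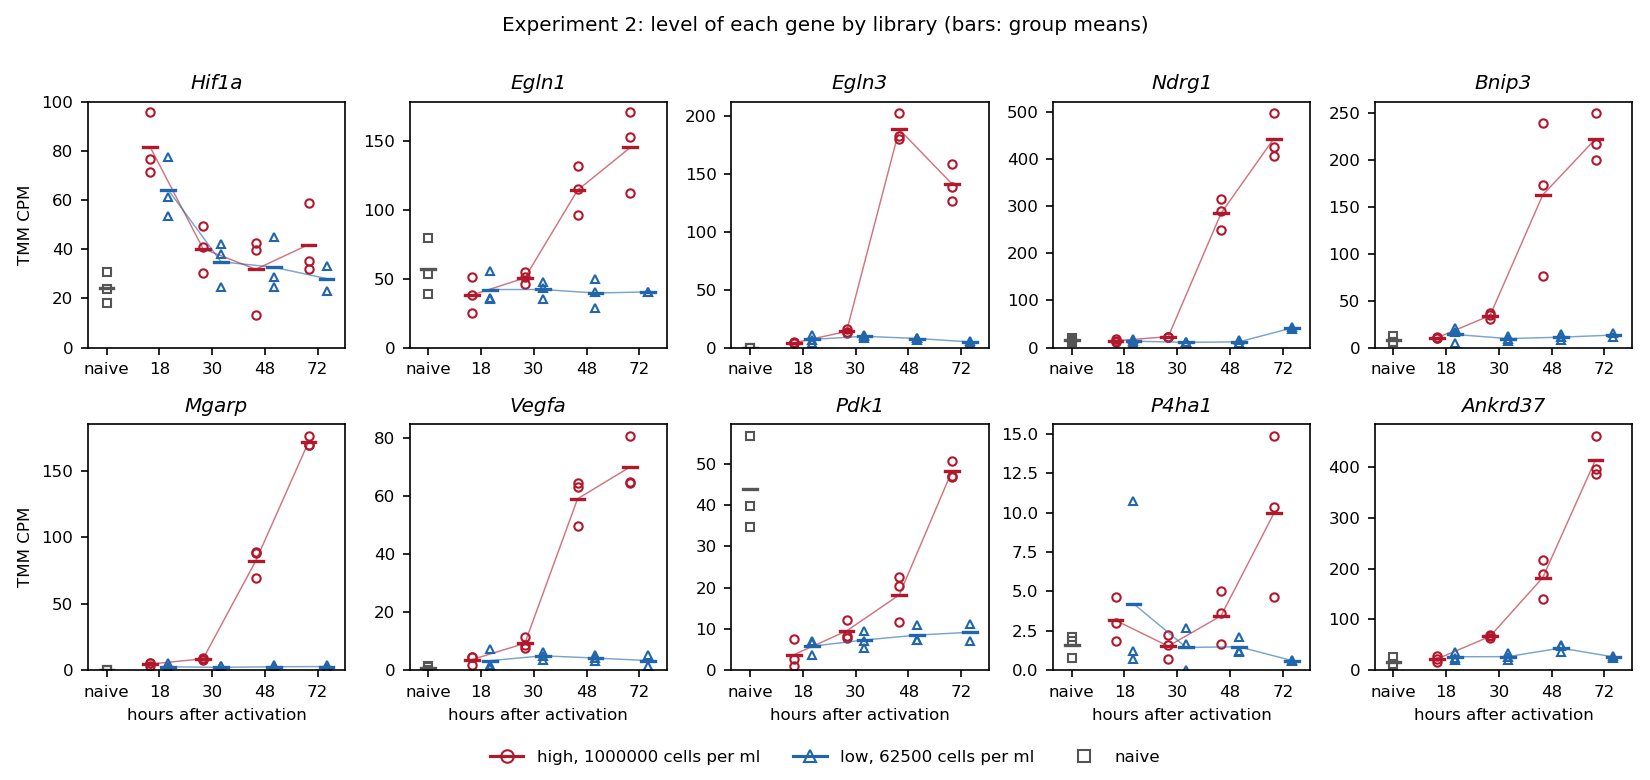
Level of each gene (TMM CPM, linear axes from 0, a scale for each panel) in every library of the high (red circles) and low (blue triangles) concentration at 18, 30, 48 and 72 h and of naive cells (grey squares), with bars for group means. For 8 genes the high libraries leave the low ones by 48 h, and for P4ha1 at 72 h. The Hif1a libraries of both concentrations overlap at every time. This describes the points, and the share of all genes so separated was not taken for these comparisons.

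Hif1a encodes the oxygen-regulated alpha subunit of HIF-1, the factor at the centre of this response. At 18 h it had 96, 71.6 and 76.9 CPM at the high concentration, against 61.3, 77.6 and 53.5 CPM at the low concentration. At 48 h the high libraries had 13.4, 42.5 and 39.6 CPM and the low libraries 28.7, 44.9 and 24.5 CPM. At 72 h the values were 58.7, 31.8 and 35.1 CPM at the high and 33.1 and 23 CPM at the low concentration. The 2 sets of libraries overlapped at all 4 times, and the log2 difference stayed between 0.03 at 48 h and 0.59 at 72 h. Its approximate 95% interval at 48 h ran from -0.67 to 0.73, so the data leave room for a Hif1a difference of about that size. Hif1a was higher at 18 h than in naive cells by 1.56 ± 0.33, with naive values of 23.9, 18 and 30.8 CPM, and then fell by 1.01 ± 0.34 from 18 to 30 h at the high concentration. That fall did not pass the test without high 18 h replicate 1 or 3 or high 30 h replicate 1 or 2 (edgeR adjusted p from 0.0581 to 0.148). It also did not pass with the second title number as a term (-0.62, edgeR adjusted p = 0.417), a number that is 1 in every 18 h and 2 in every 30 h library of both concentrations. At the low concentration Hif1a had 24.6, 42 and 38.1 CPM at 30 h and 61.3, 77.6 and 53.5 CPM at 18 h, with all 30 h libraries below all 18 h ones. That step of -0.88 ± 0.36 missed the threshold (edgeR adjusted p = 0.115), and passed it with no filter on low counts (-0.83, adjusted p = 0.0134) and with the compared groups alone (-0.88, adjusted p = 0.0120).

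Egln1 and Egln3 encode PHD2 and PHD3, the prolyl hydroxylases that mark HIF alpha subunits, and both are themselves known HIF target genes. Egln3 had 12.2, 16.3 and 13.1 CPM at 30 h at the high concentration, against 10.2, 10.5 and 8.42 CPM at the low. All high libraries were above all low ones there, but the difference of 0.54 ± 0.25 did not pass the test. At 48 h it had 202, 180.4 and 183 CPM at the high and 6.78, 8.63 and 8.03 CPM at the low concentration, a difference of 4.58 ± 0.22 with edgeR adjusted p = 7.17e-22. Most of that gap opened between 30 and 48 h: Egln3 rose by 3.74 ± 0.21 at the high concentration and did not pass the test at the low one (-0.30 ± 0.28). At 72 h it had 127, 158 and 139 CPM at the high and 5.63 and 4.13 CPM at the low concentration (4.84 ± 0.30). All high libraries at 72 h were below those at 48 h, and that step of -0.41 ± 0.17 missed the threshold.

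Egln1 was first called at 48 h. At 30 h its libraries overlapped, with 46.1, 50.9 and 54.6 CPM at the high and 43.2, 35.4 and 47.8 CPM at the low concentration. At 48 h they had 132, 115 and 96.1 CPM against 28.7, 40.3 and 49.8 CPM, and at 72 h 112, 171 and 153 CPM against 40.7 and 40.1 CPM. The differences were 1.51 ± 0.22 and 1.84 ± 0.26, and no library of one concentration reached the range of the other at either time. Unlike Egln3, Egln1 was well detected before activation, with 79.5, 38.6 and 53.7 CPM in naive cells of experiment 2, where Egln3 had 0 counts in all 3 libraries.

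Ankrd37, an ankyrin repeat gene known as a HIF-1 target, and Ndrg1, a stress-response gene induced at low oxygen, were among the 4 earliest. Ankrd37 had 69.1, 62.5 and 68 CPM at 30 h at the high concentration and 19.2, 34.3 and 26.1 CPM at the low. At 48 h it had 141, 217 and 189.8 CPM against 35.4, 46.6 and 48.6 CPM, and at 72 h 386, 463 and 397 CPM against 23.8 and 28.3 CPM. High and low libraries were apart from 30 h on, by 1.32 ± 0.21, 2.07 ± 0.20 and 3.99 ± 0.26 on the log2 scale at 30, 48 and 72 h. Ndrg1 parted by a smaller step at 30 h, with 23, 23.1 and 23.2 CPM at the high and 11.4, 9.39 and 12.4 CPM at the low concentration (1.05 ± 0.23). At 48 h the high libraries had 316, 290.4 and 249.9 CPM and the low libraries 9.91, 10.4 and 16.1 CPM, a difference of 4.52 ± 0.20. At 72 h Ndrg1 had 408, 498 and 426 CPM at the high and 38.8 and 44.2 CPM at the low concentration. Ndrg1 thus also rose at the low concentration, by 1.74 ± 0.24 from 48 to 72 h, while the high libraries stayed above all low ones.

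Bnip3 and Mgarp act at mitochondria. Bnip3 is a mitochondrial receptor that brings the organelle to autophagy, and Mgarp, a mitochondrial protein of steroid-forming cells, is known to be induced by HIF-1. Bnip3 had 36.7, 30.2 and 35.1 CPM at 30 h at the high concentration and 6.61, 12.7 and 9.3 CPM at the low (1.81 ± 0.36). At 48 h the high libraries had 76.4, 173 and 239 CPM and the low libraries 10.9, 8.06 and 14.1 CPM (3.86 ± 0.33). The 48 h replicate 1 of the high concentration was the lowest of its group for Bnip3 and also for Hif1a. Over both experiments the same library was lowest for Bnip3 and Hif1a in 11 of the 19 groups. At 72 h Bnip3 had 249.6, 217 and 199.7 CPM against 11.3 and 15.3 CPM (4.05 ± 0.39).

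Mgarp had the largest log2 difference of the 10 genes at 30, 48 and 72 h. It had 9.36, 8.35 and 7.85 CPM at 30 h at the high concentration and 3, 0 and 3.1 CPM at the low (1.97 ± 0.48). Low 30 h replicate 2 had 0 counts, and without it the difference was 1.45 with an edgeR adjusted p = 0.0517, which would put its first time at 48 h. At 48 h Mgarp had 69.7, 88.1 and 89.2 CPM at the high and 2.09, 3.45 and 2.01 CPM at the low concentration (5.03 ± 0.36). At 72 h it had 169.8, 176 and 169 CPM at the high and 1.25 and 4.13 CPM at the low concentration. Over the group, 605 counts stood against 9, a depth-scaled ratio of 62.9 (exact 95% interval 32.9 to 138, counting error only).

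Vegfa, Pdk1 and P4ha1 carry the pathway's effects on vessels, glucose carbon and collagen: Vegfa encodes the vessel growth factor VEGF-A, Pdk1 a kinase that holds pyruvate back from the mitochondria, and P4ha1 a subunit of the collagen prolyl hydroxylase. Vegfa had 8.64, 11.5 and 7.47 CPM at 30 h at the high concentration and 3.6, 4.97 and 6.2 CPM at the low, apart in every library, with a difference of 0.87 ± 0.42 that missed the threshold. At 48 h it had 64.6, 63.2 and 49.6 CPM against 5.21, 4.03 and 3.21 CPM (3.82 ± 0.37), and at 72 h 64.9, 80.9 and 64.7 CPM against 1.25 and 5.31 CPM (4.37 ± 0.47). Pdk1 had 22.7, 11.5 and 20.5 CPM at 48 h at the high concentration and 7.3, 10.9 and 7.23 CPM at the low (1.11 ± 0.34). That call was lost without high replicate 1, high replicate 3 or low replicate 3 (edgeR adjusted p from 0.0563 to 0.0635). At 72 h Pdk1 had 46.9, 50.8 and 47.2 CPM against 11.3 and 7.08 CPM (2.39 ± 0.37), and the groups lay far apart. P4ha1 was thin in experiment 2, with at most 19 counts in a library of these 2 concentrations, and parted at 72 h alone. It had 14.9, 10.3 and 4.62 CPM at the high and 0.625 and 0.59 CPM at the low concentration (3.89 ± 0.90), from 36 counts against 2 in all, a ratio of 16.8 (exact 95% interval 4.33 to 144, counting error only).

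**Figure D2:**
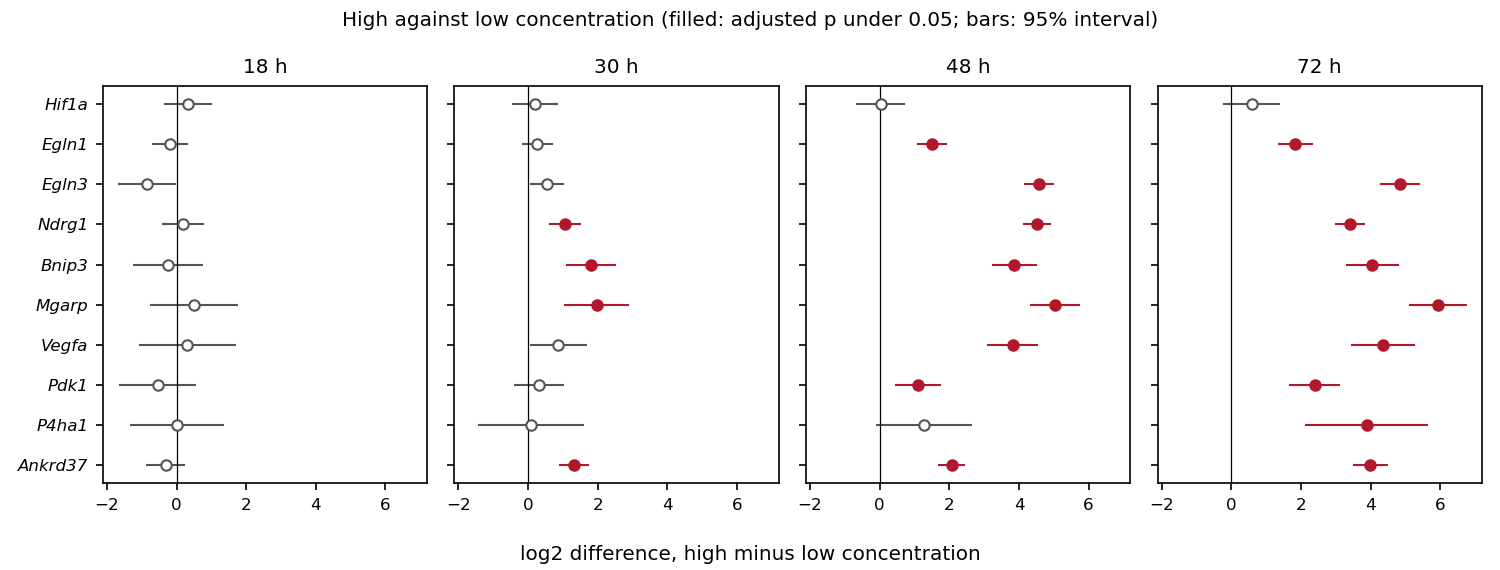
Log2 difference of the high minus the low concentration for each gene at 18, 30, 48 and 72 h. Bars are approximate 95% intervals from the SE, and points are filled where the adjusted p was under 0.05. Filled points number 0, 4, 8 and 9 in time order, and Mgarp lies farthest right from 30 h on.

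Whether the gap itself grew between times was tested as an interaction. From 18 to 30 h the gap grew for Ankrd37 alone among the 10, by 1.63 ± 0.35, where 0.898% of all genes passed in either direction. Without low 18 h replicate 1 this value was 1.31 with an edgeR adjusted p = 0.179. The gap of Bnip3 differed by 2.05 ± 0.64 between these times and missed the threshold (edgeR adjusted p = 0.125). It passed under DESeq2, with no filter, with the compared groups alone and without low 18 h replicate 1 (adjusted p from 0.0027 to 0.0338). From 30 to 48 h it grew for 6 of the 10, where 12.9% of all genes passed: Egln3 by 4.04 ± 0.35, Ndrg1 by 3.47 ± 0.32, Mgarp by 3.06 ± 0.73, Vegfa by 2.95 ± 0.59, Bnip3 by 2.05 ± 0.51 and Egln1 by 1.24 ± 0.32. Mgarp's growth did not pass without low 30 h replicate 3 (2.52, edgeR adjusted p = 0.0856). From 48 to 72 h the gap of Ankrd37 grew by 1.92 ± 0.31 and that of Ndrg1 narrowed, by -1.10 ± 0.29, with 12.6% of all genes passing. The change of Ndrg1 did not pass without low 72 h replicate 2 (edgeR adjusted p = 0.0612) or with the second title number as a term (0.0629).

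Steps over time were then tested within each concentration, and most of those that passed were rises at the high concentration. At the high concentration, 4 of the 10 rose and 1 fell from 18 to 30 h (17.9% of all genes passed in either direction), 8 rose from 30 to 48 h (30.1%) and 4 rose from 48 to 72 h (23.5%). The rise of Ndrg1 from 18 to 30 h (0.69 ± 0.25, edgeR adjusted p = 0.0455) was lost under DESeq2, with no filter, with the compared groups alone and with the second title number as a term (adjusted p from 0.0512 to 0.0934). It was also lost without high 18 h replicate 1 or 2 or any 1 of the 3 high 30 h replicates (0.0741 to 0.228). The rise of Pdk1 from 30 to 48 h (0.98 ± 0.33) was lost without high 30 h replicate 2 or 3 or high 48 h replicate 1 or 3 (edgeR adjusted p from 0.0726 to 0.0965). The 4 genes that rose from 48 to 72 h were Pdk1 (1.41 ± 0.29), Ankrd37 (1.18 ± 0.18), Mgarp (1.05 ± 0.24) and Ndrg1 (0.64 ± 0.16). With the second number in the library titles as a term, the step of Mgarp was 0.35 and that of Ndrg1 0.58, and neither passed. At the low concentration none of the 10 passed from 18 to 30 h (11.7% of all genes did), where Hif1a alone had an unadjusted p under 0.05 and DESeq2 also called 0. From 30 to 48 h Ankrd37 alone rose, by 0.71 ± 0.22 (9.28% of all genes passed), and from 48 to 72 h Ndrg1 rose and Ankrd37 fell by 0.74 ± 0.26 (25.8% passed). Both low-concentration calls of Ankrd37 were lost with several single libraries left out (edgeR adjusted p up to 0.166 for the rise over all alternatives and up to 0.221 for the fall).

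Against naive cells of experiment 2, most genes of the table differed at 18 h: 65.9% of all genes passed over both concentrations, and the 7 of the 10 that passed are close to that share. Hif1a, Egln3, Mgarp, Vegfa and Ankrd37 were higher and Pdk1 and Egln1 lower. Pdk1 had 0.932, 7.46 and 2.75 CPM at the high and 6.57, 3.64 and 7.13 CPM at the low concentration, against 34.7, 39.8 and 56.8 CPM in naive cells, lower by a log2 value of -3.19 ± 0.31. At 72 h its high libraries lay within the range of the naive ones, and at the low concentration its libraries at all 4 times were below every naive library. Egln3 and Mgarp had 0 counts in the 3 naive libraries, and over the 18 h libraries were at least 8.66-fold and 6.37-fold higher (floor of 3 counts over the naive group). The calls of Egln1 (-0.47 ± 0.21), Ankrd37 (0.65 ± 0.24) and Vegfa (1.89 ± 0.74) were each lost when single libraries were left out (edgeR adjusted p up to 0.495, 0.193 and 0.252).

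Other genes of the pathway, from 2 lists of related genes, were set beside the 10. Of 30 further hypoxia-induced genes, 25 were tested in experiment 2, of which 0 were higher and 1 lower at 18 h, 5 higher at 30 h, 22 higher at 48 h, and 19 higher and 1 lower at 72 h. Their median differences were -0.05, 0.51, 2.07 and 1.84 at the 4 times. Over all genes tested, 4.63% were called higher at 30 h, 13.9% at 48 h and 13% at 72 h. Called lower over all genes were 0.725% at 18 h and 13.5% at 72 h. At 48 h P4ha2, a second collagen prolyl hydroxylase subunit, had 55.4, 58.3 and 33.2 CPM at the high and 2.09, 0 and 0.402 CPM at the low concentration. Stc2, a secreted glycoprotein gene, had 30.2, 21.9 and 19.6 CPM against 0.521, 0.575 and 0 CPM. Ddit4, an inhibitor of mTORC1 signalling, had 463, 377 and 344 CPM against 109, 86.9 and 82.7 CPM, higher by 2.08 ± 0.17 at 48 h, whereas at 18 h it was lower, by a log2 value of -0.88 ± 0.24. Gys1, the muscle-type glycogen synthase gene, was higher by 2.81 ± 0.32 at 48 h. Plod1, a collagen lysyl hydroxylase gene, was lower at 72 h (-1.72 ± 0.52).

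Of the other 14 genes of oxygen sensing and HIF assembly, 13 were tested, and fewer of them were called from 30 h on. There were 0 higher at 18 h, 1 at 30 h, 3 at 48 h and 4 at 72 h, with median differences of 0.03, 0.12, 0.34 and 0.38. Where 4.63%, 13.9% and 13% of all genes were called higher at 30, 48 and 72 h, 1, 3 and 4 of the 13 were. Those higher at 48 h were Cited2 (1.79 ± 0.21), which competes with HIF-1 alpha for its coactivator, Hif3a (1.68 ± 0.45), another HIF alpha subunit, and Vhl (0.92 ± 0.27), the von Hippel-Lindau protein. Cited2 had 60.5, 74.1 and 57.8 CPM at the high and 19.3, 19.6 and 16.9 CPM at the low concentration. Egln2, the third prolyl hydroxylase of the family, differed by 0.55 ± 0.22 at 48 h and did not pass.

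**Figure D3:**
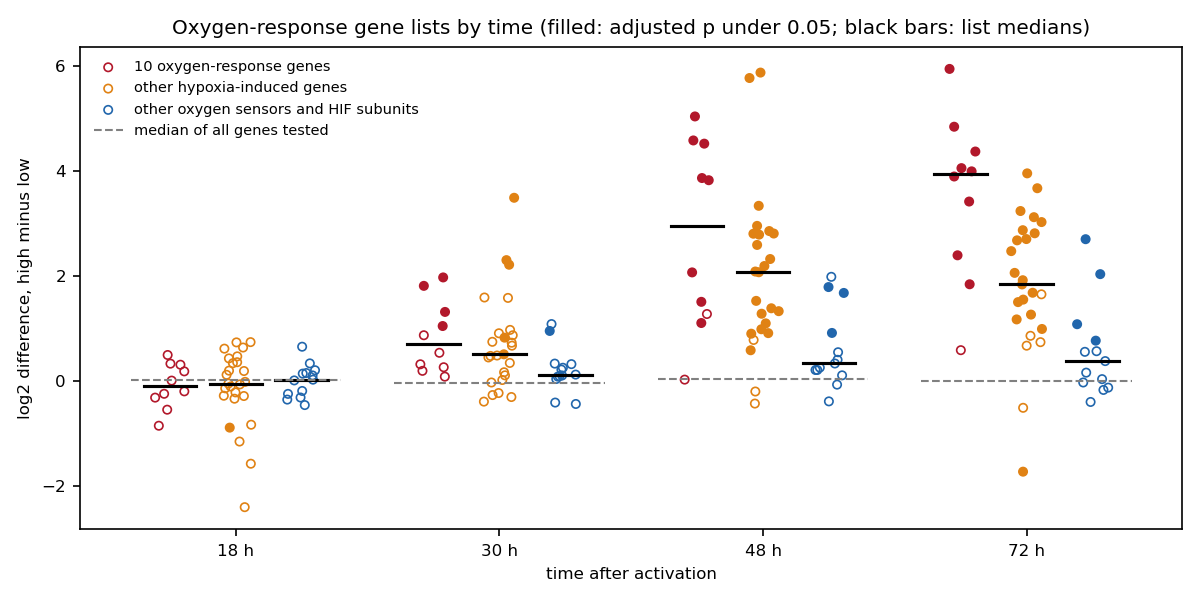
Log2 difference of the high minus the low concentration for the 10 genes (red), 25 further hypoxia-induced genes (orange) and 13 further sensors and HIF subunits (blue) at 18, 30, 48 and 72 h, with black bars for list medians and a dashed line for the median of all genes. At 48 h the medians are 2.94, 2.07 and 0.34 in that order.

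Promoter sequences are shown because the pathway acts through a short DNA core. Whether HIF bound these promoters in these cells was not tested. The RefSeq promoter table (mouse build GRCm38.p6, 250 bases before to 50 after each gene's start) matched 9 of the 10 genes, all but Ndrg1. HIF binds a core of ACGTG or GCGTG, and these were searched on both strands, so that the palindrome CACGTG counts on each. Of the 9, taking the first listed start of each gene, 8 (88.9%) hold at least 1 core, beside 43.8% of the first-start promoters of 27025 genes, and 6 (66.7%) hold 2 or more, beside 20.8%. A match is a run of letters and not a measured binding site, and the 9 genes were chosen as hypoxia genes. Below are the windows of the 3 matched genes that parted at 30 h, of Egln3, which opened the widest gap between 30 and 48 h, and of Hif1a, which did not part. Capitals mark the core on the gene's strand, or its complement CACGT or CACGC where it lies on the other strand.
Ankrd37 promoter (chr8:45999801-46000100, minus strand): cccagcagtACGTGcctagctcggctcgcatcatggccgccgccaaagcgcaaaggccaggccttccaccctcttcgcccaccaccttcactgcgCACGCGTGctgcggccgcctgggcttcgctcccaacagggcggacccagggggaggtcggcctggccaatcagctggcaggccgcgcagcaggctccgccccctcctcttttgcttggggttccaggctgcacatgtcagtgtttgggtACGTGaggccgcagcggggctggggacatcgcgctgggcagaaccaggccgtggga
Bnip3 promoter (chr7:138909457-138909756, minus strand): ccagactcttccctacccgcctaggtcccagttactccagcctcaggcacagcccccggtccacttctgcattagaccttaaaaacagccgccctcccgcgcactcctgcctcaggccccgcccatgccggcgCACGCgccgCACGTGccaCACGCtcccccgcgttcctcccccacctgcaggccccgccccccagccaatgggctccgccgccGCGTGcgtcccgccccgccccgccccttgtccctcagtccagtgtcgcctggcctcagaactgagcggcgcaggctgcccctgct
Mgarp promoter (chr3:51396498-51396797, minus strand): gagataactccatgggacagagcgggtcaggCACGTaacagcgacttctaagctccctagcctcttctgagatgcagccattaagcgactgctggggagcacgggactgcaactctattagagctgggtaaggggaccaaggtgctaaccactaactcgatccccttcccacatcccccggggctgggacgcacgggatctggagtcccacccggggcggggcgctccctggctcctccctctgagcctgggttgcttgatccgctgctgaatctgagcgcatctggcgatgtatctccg
Egln3 promoter (chr12:54203825-54204124, minus strand): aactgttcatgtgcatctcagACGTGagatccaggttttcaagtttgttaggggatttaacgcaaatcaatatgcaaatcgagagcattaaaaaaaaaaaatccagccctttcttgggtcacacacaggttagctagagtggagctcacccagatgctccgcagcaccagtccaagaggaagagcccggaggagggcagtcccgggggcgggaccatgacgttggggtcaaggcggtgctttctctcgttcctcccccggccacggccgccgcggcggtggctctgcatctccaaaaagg
Hif1a promoter (chr12:73907617-73907916, plus strand): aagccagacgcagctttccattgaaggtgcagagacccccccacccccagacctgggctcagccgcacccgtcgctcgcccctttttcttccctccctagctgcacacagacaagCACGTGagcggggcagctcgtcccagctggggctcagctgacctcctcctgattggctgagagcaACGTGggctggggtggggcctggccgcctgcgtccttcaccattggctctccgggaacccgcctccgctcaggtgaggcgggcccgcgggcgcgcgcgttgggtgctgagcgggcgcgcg
Ankrd37 has 4 cores, Bnip3 5, with a CACGTG among them, Mgarp 1 and Egln3 1. Hif1a, whose RNA did not differ between concentrations past the threshold, has 3, and P4ha1, the last to part, also 3. Egln1 has 2. The first listed start of Vegfa has 0 and its second 2, and the first start of Pdk1 has 2 and its second 0. The number of cores did not follow the first time of parting in these windows.

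**Figure D4:**
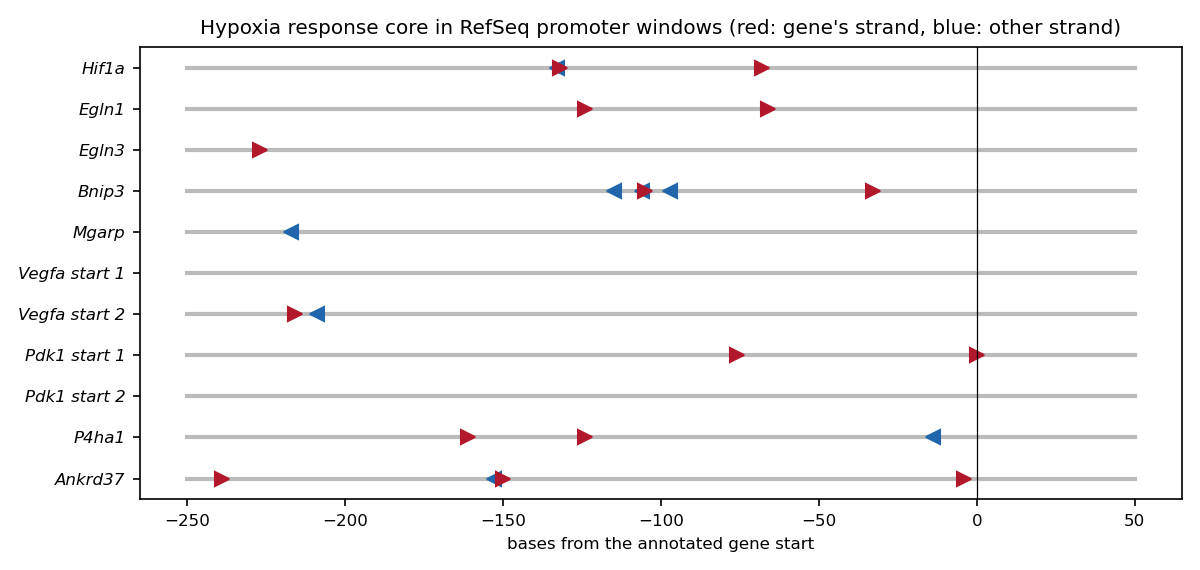
Position of each hypoxia response core (bases from the annotated gene start) in the promoter windows of 9 genes, with red marks on the gene's own strand and blue marks on the other strand. Bnip3 has 5 marks, Ankrd37 has 4, and the first start of Vegfa and the second of Pdk1 have 0.

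Across the 13 groups of experiment 2 the 9 genes other than Hif1a shared a profile. With each gene left out of the mean profile of the others (mean of z-scored log2 levels), Pearson's r was 0.963 for Bnip3, 0.958 for Mgarp, 0.957 for Egln1, 0.956 for Ankrd37, 0.955 for Ndrg1, 0.913 for Vegfa, 0.880 for Egln3, 0.744 for P4ha1 and 0.586 for Pdk1. Hif1a had r = -0.21 with the same profile. These are descriptions over 13 group means that share the concentration and time structure. Among 4615 genes ranked for likeness to the profile, the closest included Avpi1 (r = 0.985), the glucose transporter gene Slc2a3 (0.966), the glycolytic enzyme gene Gpi1 (0.943), the sterol synthesis gene Dhcr7 (0.938), the glucose transporter gene Slc2a1 (0.911), Helb (0.908) and Trappc6a (0.906). The least like were Cnpy3 (-0.931), Smg5 (-0.913), Mrpl24 (-0.912) and Csrp2bp (-0.910). On the mean profile the sorted 250000 per ml cultures of experiment 2 lay between the 2 concentrations: at 72 h CD62L positive cells stood at 1.12 and CD62L negative cells at 0.59, with the high concentration at 1.81 and the low at -0.73.

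In those sorted cultures 9 of the 10, all but Hif1a, were higher at 72 than at 48 h over both sorts (37.8% of all genes passed in either direction). Ndrg1 had 220.2, 259 and 221 CPM at 72 h and 50.1, 51.9 and 57.3 CPM at 48 h in CD62L positive cells. In CD62L negative cells it had 110.3, 127 and 118 CPM at 72 h and 36.7, 51.2 and 30.3 CPM at 48 h. Both sorts rose without overlap, by 1.85 ± 0.13 on average. Between the sorts, none of the 10 passed at 48 h (14.5% of all genes did), where Ndrg1 alone had an unadjusted p under 0.05 and DESeq2 also called 0. At 72 h Ndrg1 alone was higher in CD62L positive cells, by 0.98 ± 0.17 (1.53% passed). For 8 of the 10 every positive library stood above every negative one, as for 10.2% of all genes.

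Experiment 1 made the same sorts without the CD44 gate. There too Ndrg1, Mgarp, Ankrd37 and Pdk1 were higher at 72 than at 48 h over both sorts, by 1.39 ± 0.14, 1.32 ± 0.17, 0.63 ± 0.15 and 0.70 ± 0.11, while Egln3 and Vegfa were lower (-1.65 ± 0.13 and -0.46 ± 0.17; 52.5% of all genes passed). Egln3 had 39.5, 26.5 and 32.2 CPM at 72 h and 164, 162 and 175 CPM at 48 h in CD62L positive cells, and 74.8, 70.5 and 72.5 CPM at 72 h and 138, 136 and 147 CPM at 48 h in CD62L negative cells. In experiment 2 the CD62L positive cells had 41.7, 40.6 and 40.9 CPM at 72 h and 20.1, 12.8 and 13.5 CPM at 48 h, the opposite direction. The fall of Vegfa in experiment 1 did not pass without CD62L negative 72 h replicate 2 (edgeR adjusted p = 0.0551). Same-numbered CD62L positive and negative libraries of experiment 1 deviated together at 72 h (correlation 0.289 to 0.585). The test over both sorts took them as separate libraries, so its SE may be too small.

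At 72 h in experiment 1 Egln3 was lower in CD62L positive than in CD62L negative cells (-1.16 ± 0.20), Bnip3 was lower (-0.88 ± 0.29) and Pdk1 higher (1.01 ± 0.15), where 19.5% of all genes passed. Pdk1 had 333, 347 and 388 CPM in positive and 183, 160.2 and 187 CPM in negative cells, with no overlap. Bnip3 had 81.5, 67.9 and 17.2 CPM in positive and 126, 123 and 78.7 CPM in negative cells, and the ranges overlap. Libraries of the same number pair in this comparison, positive cells were lower in all 3 pairs, and the call stood with the replicate block (-0.90, edgeR adjusted p = 0.0342). It was lost under DESeq2 (adjusted p = 0.0522), with the compared groups alone (0.148) and without CD62L positive replicate 2, CD62L negative replicate 1 or CD62L negative replicate 2 (0.0559 to 0.105). CD62L positive replicate 3 was lowest in its group for Bnip3 and for Hif1a (117, 125 and 34.3 CPM). This group is among the 11 of 19 in which the 2 genes share their lowest library. At 48 h in experiment 1 Pdk1 alone was higher in CD62L positive cells (0.51 ± 0.16; 6.51% of all genes passed). That call was lost under all alternatives that touch it except the removal of CD62L positive replicate 2 and the setting without the filter on low counts.

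**Figure D5:**
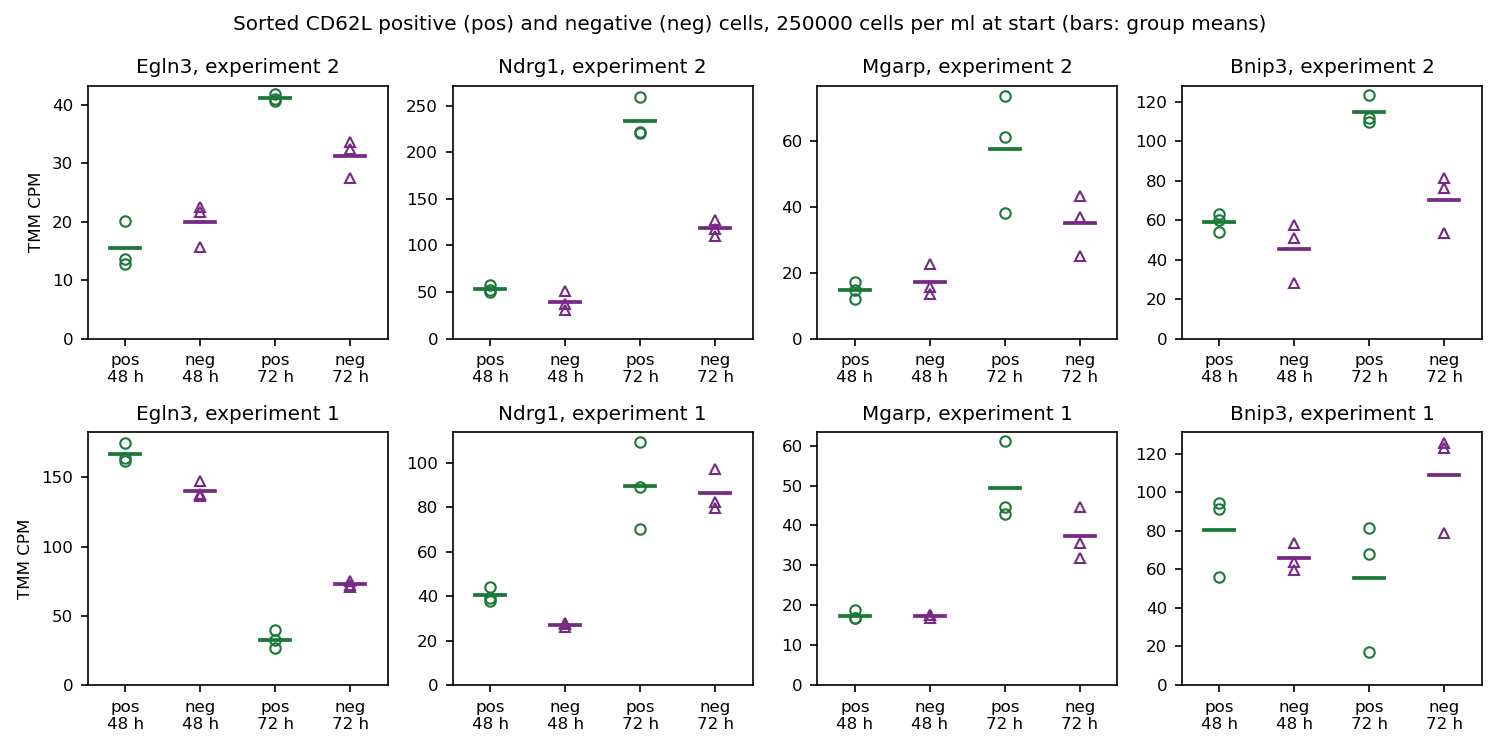
Level (TMM CPM, axes from 0) of Egln3, Ndrg1, Mgarp and Bnip3 in every library of the CD62L positive (green circles) and CD62L negative (purple triangles) cells at 48 and 72 h, experiment 2 above and experiment 1 below, with bars for group means. Ndrg1 and Mgarp are higher at 72 h in both experiments, whereas Egln3 is higher at 72 h in experiment 2 and lower in experiment 1.

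Without activation, mature cells of experiment 1 had more Hif1a than naive cells, 53.8, 75.4 and 76.7 CPM against 0, 12.7 and 9.33 CPM (2.82 ± 0.75), and more Egln3, from 39 counts against 3 (ratio 4.98, exact 95% interval 1.58 to 25.2, counting error only). Pdk1 and Vegfa were lower in mature cells (-1.07 ± 0.23 and -2.50 ± 0.41), and 16.4% of all genes passed. Vegfa had 9.61, 16.3 and 11.4 CPM in mature and 93.1, 97.6 and 43.5 CPM in naive cells, with no overlap. Per the labels, both groups came from MACS enrichment, a selection with magnetic beads. Naive replicate 1 of this experiment is the library with 58750 counts, and the calls of Hif1a and Egln3 were lost without naive replicate 2 or 3, and that of Pdk1 without naive replicate 3. Markers of other cells stood at different levels in these groups: summed B-cell markers reached 458 to 489 CPM in mature and 745 to 1296 CPM in naive cells (5 of 6 markers found in each group), myeloid markers 656 to 742 against 1537 to 2122 CPM (6 of 6 in each), and red-cell and platelet markers 34.6 to 48.9 against 224 to 543 CPM (5 of 6 and 4 of 6). Their part in the result was not tested.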

How the data were processed

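The values are raw counts per gene symbol in 2 tables, deposited by the authors with 1 column per library and no further scaling. Build mm9 and the tools STAR 2.5.2b, HISAT 0.1.5, HTSeq 0.9.1, FastQC 0.11.7 and bcl2fastq 2.17.1.14 come from the submitters' processing notes. Not given in the sources used here are their order, the strand setting and any collapsing of molecular identifiers. If reads were counted, amplification copies would add spread between replicates. Library pairs of a group differed by 1.32 to 16.5 times counting variance (chi-square per degree of freedom), so no library was merged. No source used here says that libraries come from separate mice or cultures, so p-values reflect the spread among libraries, which may be technical.

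Each table was fitted on its own with edgeR 4.0.16 under R 4.3.3, with group means as coefficients, TMM scaling, filterByExpr (minimum count 10) and robust quasi-likelihood tests, over 9239 genes in experiment 2 (25 residual degrees of freedom) and 8961 in experiment 1 (12). P-values were adjusted by Benjamini-Hochberg over all genes of a comparison, at 0.05, in 21 comparisons. SE is the size of the log2 difference over the square root of F. The 95% intervals of log2 differences are normal approximations from this SE and can be narrower than the test allows. For Egln3, high against low at 18 h, the interval ran from -1.69 to -0.005, beside an unadjusted edgeR p of 0.083. Log2 profiles used a prior count of 2. The fits were tested on simulated data. Replicate numbers pair libraries in the CD62L comparison at 72 h of experiment 1, where every same-numbered pair deviated together (correlation 0.289 to 0.585). Every pair was also positive, more weakly, for 18 to 30 h high (0.0925 to 0.144), 30 to 48 h low (0.0194 to 0.248) and 48 to 72 h low (0.0999 to 0.162). No main fit held a replicate block, also not for the CD62L comparison at 72 h of experiment 1. With the block, tried as an alternative, its calls of Egln3, Bnip3 and Pdk1 stood (-1.15, -0.90 and 1.02). In the other comparisons the numbers were treated as names. Named genes are the 10, up to 4 of each list with the smallest adjusted p at 48 h, and the 8 most and 4 least like the profile, of which 1 is not reported here; Plod1 and the other list members named at 72 h were chosen after their values were seen. The 10 genes and the lists were chosen with earlier results of these data known. DESeq2 1.42.0, other normalisation, no filter, a replicate block, the compared groups alone, the second number in the titles as a term and leaving out each library were tried. No genome of build mm9 was used here; promoter windows are of GRCm38.p6.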

Additional observations from a re-analysis of the deposited data

Results flagged for a closer look

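The gap between the high and low concentration changed with time, by a test of the change itself, in 9 cases. From 18 to 30 h it was Ankrd37 (1.63). From 30 to 48 h it was Egln3 (4.04), Ndrg1 (3.47), Mgarp (3.06), Vegfa (2.95), Bnip3 (2.05) and Egln1 (1.24). From 48 to 72 h it was Ankrd37 (1.92) and Ndrg1 (-1.10), all as log2 values. Over all genes, 0.898%, 12.9% and 12.6% passed in either direction at these steps, in time order. Some alternatives lost the calls of Ankrd37 from 18 to 30 h, Mgarp from 30 to 48 h and Ndrg1 from 48 to 72 h.

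Egln3 moved in opposite directions in the 2 experiments, in every library. The ratio of mean levels at 72 over 48 h was 2.65 in experiment 2 and 0.196 in experiment 1 for CD62L positive cells, and 1.56 and 0.517 for CD62L negative cells. CD62L positive over negative cells at 72 h gave 1.32 in experiment 2 and 0.451 in experiment 1. The difference between the experiments was not tested, since each table was scaled on its own. The experiments differ in date, in the CD44 gate and in the number of gene symbols listed (19791 in experiment 1, 24421 in experiment 2). Levels in the sorted cells differ as well. Group means of P4ha1 were 94.2 to 112 CPM in experiment 1 and 1.01 to 8.07 CPM in experiment 2. Those of Ankrd37 were 47.5 to 86.4 CPM and 78.2 to 229 CPM. These differences cannot be told apart, and their part in the direction of Egln3 was not tested. No group has more than 3 libraries, so no single library was tested for standing apart.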

How the results depend on the processing

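Of 2742 values of single genes under the alternatives, 2649 kept their side of the threshold, 73 lost the call and 20 gained one. None of the 1106 values called in the first place changed sign, and 122 of the 1636 not called did, none of them past the threshold. The counts of genes called among the 10 at high against low concentration moved by less than 1.5 times at 30, 48 and 72 h and stayed at 0 at 18 h. Other counts moved as follows; the cause was not tested. For CD62L positive against negative cells at 48 h in experiment 1 the count was 0 under RLE normalisation, DESeq2, the replicate block and the compared groups alone, and 0 to 2 with single libraries left out. The replicate block changed no other call. Under DESeq2 it was 2 for the change of the gap from 18 to 30 h and 2 for CD62L at 72 h in experiment 2. With no low-count filter it was 2 for that change and 1 for 18 to 30 h at the low concentration. With the compared groups alone it was 2 for that change, 3 for CD62L at 72 h in experiment 2, 1 for 18 to 30 h low, 0 for 30 to 48 h low and 3 for 18 h against naive. With the second title number as a term it was 1 for the change of the gap from 48 to 72 h, 2 for 48 to 72 h high, 0 for 30 to 48 h low and 1 for 48 to 72 h low. Leaving out single libraries gave 1 to 4 for mature against naive, 0 to 1 for CD62L at 48 h in experiment 2, 3 to 5 for 18 to 30 h high, 1 to 2 for the change from 48 to 72 h, 0 to 1 for 30 to 48 h low and 1 to 2 for 48 to 72 h low. The first time of parting ranged from 30 to 48 h for Mgarp and 48 to 72 h for Pdk1. Counts over all genes that moved by more than 1.5 times are these. For high against low at 18 h, 173 genes became 455 with the compared groups alone and 94 to 154 with single libraries left out. At 30 h 791 became 470 to 594 with single libraries left out, at 48 h 2397 became 1488 with the compared groups alone, and at 72 h 2447 became 1531 with the second title number and 1421 to 2226 with single libraries left out. For the change of the gap from 18 to 30 h, 83 became 132 under DESeq2, 189 with no filter, 266 with the compared groups alone and 38 to 99 with single libraries left out, and from 48 to 72 h 1161 became 296 with the second title number and 556 to 1512 with single libraries left out. The second title number took 18 to 30 h high to 860 from 1655, 48 to 72 h high to 1277 from 2170, 30 to 48 h low to 504 from 857 and CD62L at 48 h in experiment 2 to 844 from 1341. Leaving out single libraries took 18 to 30 h low at the lowest to 715 from 1084, 30 to 48 h low to 485 from 857, 48 to 72 h low to 1273 from 2386, CD62L at 48 h to 818 from 1341 in experiment 2 and 385 from 583 in experiment 1, and mature against naive to 771 from 1471. CD62L at 72 h in experiment 2 had 141, with 219 under DESeq2, 231 with the compared groups alone and 50 to 119 with single libraries left out. Levels on raw library totals moved by more than 1 SD in 7 of 190 group means. Few counts limit P4ha1 in experiment 2 and all 10 genes in naive replicate 1 of experiment 1.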
